A study of Mus musculus with 72 samples.

Results

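Cultured bone-marrow-derived macrophages were compared between the hours around the Nr1d1 peak and the hours 12 h away on either side. Macrophages are phagocytes, here grown for 6 days with M-CSF, their lineage growth factor, from femur and tibia marrow of male C57BL/6 mice aged 3 to 6 months. The donors carried Per2::Luc, which places a luciferase reporter in the clock gene Per2, and every culture had been given a serum shock to set the cells to a common phase. Sampling ran every 2 h from 16 h to 62 h in 3 time courses, which gives 72 libraries. The first group is 44, 46 and 48 h, and its 2 flanks are 32, 34 and 36 h and 56, 58 and 60 h. Each window holds 9 libraries, 3 from each course, so 27 of 72 libraries enter and the other 45 do not. The contrast is the mean of 44-48 h minus the average of the means of both flanks on the log2 scale, so that a straight-line change with time cancels. All groups share the genotype, the sex, the serum shock and the culture medium as the labels give them, and no unsynchronised culture was analysed here. No label ties a course to its own mice or cultures, and a p-value here therefore reflects the spread among these libraries, which may be technical.

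The circadian clock of mammalian cells is a loop of transcription and repression. The heterodimer of BMAL1, encoded by Arntl, and CLOCK binds E-box motifs and drives the Per and Cry genes, whose proteins return to block it, and also drives Nr1d1 and Nr1d2, which encode the haem-binding nuclear receptors REV-ERBα and REV-ERBβ. Those receptors repress Arntl through ROR response elements. In macrophages REV-ERBs are known to repress inflammatory and migration genes as well. D-box motifs, bound by the activators DBP and TEF and by the repressor NFIL3, add another arm to the loop.

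Counts assigned to genes in the 27 libraries ran from 48492358 to 66243209, with a median of 55340757. Levels are given as CPM, in which a gene's count is set against all counts of its library that were assigned to genes, after TMM scaling. Sums over marker lists and over mitochondrially encoded RNAs are CPM without TMM scaling. In a library of median depth 1 CPM stands for about 55.3 counts. The macrophage markers Csf1r, Adgre1, Cd68, Cd14, Itgam, Spi1, Mertk and Lyz2 were all present, from a lowest value of 82.3 CPM for Itgam to a highest of 18530 CPM for Lyz2. Among the 27 libraries, course 2 at 60 h and course 1 at 56 h stood farthest from the other courses of their hour, with root mean square log2 distances of 0.835 and 0.753. The summed stromal fibroblast markers, collagens among them, were at 7.59 and 24.3 CPM in those libraries, and ran from 54.9 to 479 CPM at 44-48 h, from 76.2 to 277 CPM at 32-36 h and from 7.59 to 224 CPM at 56-60 h. Of the 14 stromal markers tested 0 passed the contrast by edgeR, limma or DESeq2, and 0 had an unadjusted p under 0.05. The summed erythroid, endothelial and mast cell markers were at 57.1 CPM in course 2 at 60 h and at 42.1 CPM in course 1 at 56 h, against a median of 16.8 CPM at 56-60 h. Kdr, 1 gene of that list, by itself had a median of 14.5 CPM and a highest value of 63.2 CPM at 56-60 h after TMM scaling. The sum at 56-60 h thus rests mostly on this gene. The part of these markers in the results was not tested. Counts and calls that changed without those libraries are given with and without them. In bulk RNA fewer cells of a kind and less RNA per cell cannot be told apart.

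Nr1d1 and Nr1d2, the pair of REV-ERB genes, and Per1, a period repressor, were higher at 44-48 h than on both flanks. The hours carry the name of Nr1d1 because its fitted peak in these libraries lies there, so its values are a description with no test. Nr1d1 had a lowest, median and highest value of 14.2, 16.1 and 18.7 CPM at 44-48 h, against 5.37, 7.24 and 8.15 CPM at 32-36 h and 4.57, 8.45 and 9.02 CPM at 56-60 h. All 9 libraries of 44-48 h lay above all 18 flank libraries. Its mean over courses was 16.2 ± 1.17 CPM at 44-48 h, 7.25 ± 0.56 CPM at 32-36 h and 7.60 ± 0.989 CPM at 56-60 h (SD of course means, n = 3), a contrast of 1.13 ± 0.10 (log2, SE). It was 1.14, 1.20 and 1.09 in courses 1, 2 and 3. One cycle earlier, at 20-24 h, Nr1d1 averaged 10.6 CPM with single libraries from 8.09 to 14.9 CPM, below most libraries of 44-48 h. The opposite strand carries Thra, whose exons overlap exons of Nr1d1, and no source used here gives the strand setting of the counting.

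Nr1d2 had a lowest, median and highest value of 108, 121 and 130 CPM at 44-48 h, against 61.2, 75.8 and 95.2 CPM at 32-36 h and 64.1, 86.1 and 105 CPM at 56-60 h. The groups did not overlap, with or without the deviating libraries. Nr1d2 rose by 0.61 ± 0.06 in the contrast (adjusted p = 6.7e-11, edgeR quasi-likelihood test, Benjamini-Hochberg over 17903 genes), by 0.68 against 32-36 h and by 0.55 against 56-60 h. A joint test took for each gene the larger of the p-values against both flanks, provided that both differences had one sign, and Nr1d2 had an adjusted p of 7.72e-07 in it. Per1 had 14.9, 19.9 and 24.3 CPM at 44-48 h, against 8.84, 11.6 and 13.1 CPM at 32-36 h and 11.2, 13.4 and 15.1 CPM at 56-60 h. Of the libraries of 44-48 h only that of course 2 at 44 h, at 14.9 CPM, lay under the highest flank library. Per1 rose by 0.71 ± 0.09 (adjusted p = 2.55e-07), with a joint adjusted p of 0.0104, and its contrast was 0.71, 0.72 and 0.69 in courses 1, 2 and 3. Without course 1 at 56 h and course 2 at 60 h the contrasts were 1.06 for Nr1d1, 0.64 for Nr1d2 and 0.73 for Per1, and the joint adjusted p was 4.64e-07 for Nr1d2 and 0.0212 for Per1.

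**Figure D1:**
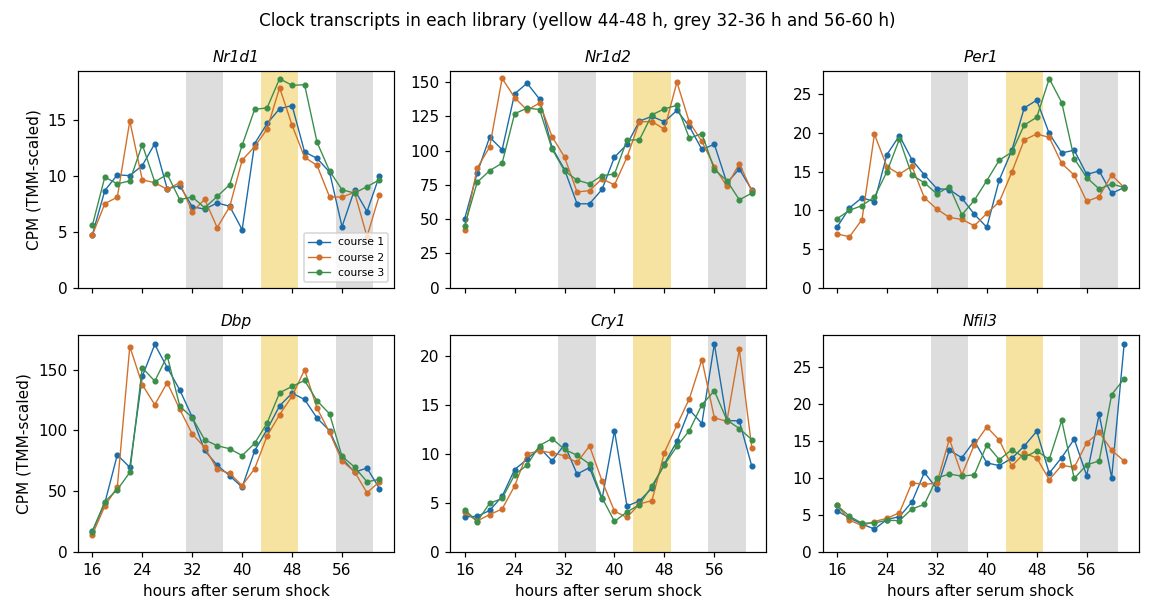
TMM-scaled CPM (y axis, from 0) of 6 clock transcripts in every library against hours after serum shock (x axis), with 1 line per time course; yellow marks 44-48 h and grey the flanks at 32-36 h and 56-60 h. Nr1d1 and Nr1d2 are above both grey bands in all 9 libraries of the yellow band, Dbp is above 32-36 h only in part, Cry1 is climbing out of a trough, and the spikes of Cry1 at 56 h in course 1 and at 60 h in course 2 are the deviating libraries.

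The sequences around the start sites of Nr1d1, Nr1d2, Per1, Cry1 and Nfil3 are shown because these genes took different shapes around 46 h. Each runs 5′ to 3′ from 250 bases before to 50 bases after the RefSeq start site (GRCm38.p6). Capitals mark the letters searched on both strands: the E-box CACGTG, the E′-box CACGTT, the D-box TTATGNAA and the core of the ROR response element, which reads TAGGTCA. No marked motifs overlap each other.
Nr1d1, chr11:98775328-98775627, minus strand: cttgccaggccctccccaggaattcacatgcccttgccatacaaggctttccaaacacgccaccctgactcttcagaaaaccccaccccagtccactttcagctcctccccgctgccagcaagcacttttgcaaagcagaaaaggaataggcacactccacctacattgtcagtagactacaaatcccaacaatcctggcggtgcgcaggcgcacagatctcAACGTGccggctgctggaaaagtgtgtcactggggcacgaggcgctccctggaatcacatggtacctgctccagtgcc
Nr1d2, chr14:18239057-18239356, minus strand: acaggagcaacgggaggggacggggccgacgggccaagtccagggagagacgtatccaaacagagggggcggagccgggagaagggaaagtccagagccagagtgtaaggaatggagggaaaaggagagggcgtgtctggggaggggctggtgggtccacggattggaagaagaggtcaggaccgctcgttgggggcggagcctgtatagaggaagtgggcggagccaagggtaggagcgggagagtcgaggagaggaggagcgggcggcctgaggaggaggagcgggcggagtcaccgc
Per1, chr11:69098699-69098998, plus strand: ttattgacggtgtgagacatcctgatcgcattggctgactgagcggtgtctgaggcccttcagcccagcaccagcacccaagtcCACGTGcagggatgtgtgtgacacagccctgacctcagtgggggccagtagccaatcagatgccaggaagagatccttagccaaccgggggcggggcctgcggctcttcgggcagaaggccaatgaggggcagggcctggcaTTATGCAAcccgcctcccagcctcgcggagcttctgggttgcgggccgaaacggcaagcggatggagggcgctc
Cry1, chr10:85185005-85185304, minus strand: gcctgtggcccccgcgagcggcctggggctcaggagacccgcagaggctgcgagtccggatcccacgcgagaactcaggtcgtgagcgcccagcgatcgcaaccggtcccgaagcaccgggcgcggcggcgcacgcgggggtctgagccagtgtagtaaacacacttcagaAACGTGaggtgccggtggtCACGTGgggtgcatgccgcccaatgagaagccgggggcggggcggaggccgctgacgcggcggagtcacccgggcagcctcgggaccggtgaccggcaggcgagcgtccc
Nfil3, chr13:52980990-52981289, minus strand: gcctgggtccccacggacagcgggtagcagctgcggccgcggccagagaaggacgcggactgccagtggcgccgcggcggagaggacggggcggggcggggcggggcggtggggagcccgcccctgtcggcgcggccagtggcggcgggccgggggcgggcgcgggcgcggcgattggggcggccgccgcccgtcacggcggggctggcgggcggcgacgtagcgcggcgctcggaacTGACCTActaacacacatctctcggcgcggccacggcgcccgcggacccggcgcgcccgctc

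Nr1d1 held 1 E′-box starting at base -28 from the start site, and Per1 held 1 E-box at -166 and 1 D-box at -24. Cry1 held 1 E-box at -60 and 1 E′-box at -79. Nfil3 held 1 ROR element core at -12, and Nr1d2 held none of the 4 motifs in this window. RefSeq gives Per1 a second start site, whose window of chr11:69099902-69100201 held none of the 4 motifs. Of 32851 RefSeq promoters of this length, 7.15% held the E-box, 4.68% the E′-box, 3.38% the D-box and 2.61% the ROR element core. A match is a run of letters and not a measured binding site.

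The other repressors of the loop did not share that shape. Cry1, the cryptochrome that acts late in the loop and the marker given for the opposite phase, had a lowest, median and highest value of 4.82, 6.52 and 10.2 CPM at 44-48 h, against 7.95, 9.82 and 11 CPM at 32-36 h and 12.6, 13.5 and 21.3 CPM at 56-60 h. It lay below all libraries of 56-60 h and overlapped 32-36 h, with a contrast of -0.88 ± 0.12 that is given as a description (-0.80 without the deviating libraries). Within the window Cry1 stood at 5.21, 4.90 and 4.82 CPM at 44 h and at 9.0, 10.2 and 8.90 CPM at 48 h in courses 1, 2 and 3, so that the hours of 44-48 h differed among themselves. Cry2, the other cryptochrome, averaged 5.61 ± 0.34 CPM at 44-48 h, 4.42 ± 0.216 CPM at 32-36 h and 4.27 ± 0.20 CPM at 56-60 h. Cry2 rose in the contrast by 0.36 ± 0.07 (adjusted p = 0.000445) but had a joint adjusted p of 0.159, and its exons overlap those of D930015M05Rik on the other strand.

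Per2, the period gene that carries the reporter, did not pass the contrast, at 0.09 ± 0.12 (adjusted p = 0.648). Per2 had 2.51, 4.87 and 8.0 CPM at 44-48 h, against 2.17, 4.52 and 7.74 CPM at 32-36 h and 1.58, 4.08 and 5.69 CPM at 56-60 h. The 3 ranges lay on top of each other. Within 44-48 h Per2 was lowest at 44 h and highest at 48 h in all 3 courses, and within 32-36 h it was highest at 32 h. Ciart, a repressor of BMAL1 activity, averaged 1.46 ± 0.089 CPM at 44-48 h, 0.839 ± 0.121 CPM at 32-36 h and 1.27 ± 0.337 CPM at 56-60 h. Its contrast of 0.49 ± 0.19 missed the threshold (adjusted p = 0.0708). Without the deviating libraries, which held 2.48 and 2.54 CPM of Ciart, the contrast was 0.69 and passed (adjusted p = 0.00657). Bhlhe40 and Bhlhe41, which encode the E-box repressors DEC1 and DEC2, fell by 0.84 and 0.56 in the contrast (adjusted p = 0.0171 and 0.025). In those same libraries Bhlhe40 stood at 44.2 and 62.3 CPM, against a median of 12.8 CPM at 56-60 h, and without them neither gene passed (adjusted p = 0.126 and 0.156).

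Dbp and Tef, activators of the PAR bZIP family that bind D-boxes, rose in the contrast. Dbp had 95.5, 120 and 136 CPM at 44-48 h, against 68.0, 87.4 and 111 CPM at 32-36 h and 48.6, 69.0 and 78.6 CPM at 56-60 h. Every library of 44-48 h was above every library of 56-60 h, whereas 32-36 h overlapped at 32 h, when Dbp was still falling from its earlier peak. Its contrast was 0.60 ± 0.09 (adjusted p = 2.67e-06) and its joint adjusted p was 0.159. Exons of Dbp overlap those of Sphk2 on the other strand. Tef averaged 126 ± 1.99 CPM at 44-48 h, 117 ± 2.49 CPM at 32-36 h and 94.7 ± 1.67 CPM at 56-60 h, which is a rise of 0.26 ± 0.06 (adjusted p = 0.00188). Tef was called against 56-60 h (0.41, adjusted p = 7.38e-05) but not against 32-36 h (0.11, adjusted p = 0.241, edgeR).

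No gene of the activator arm passed the contrast, and known targets of REV-ERBs moved in both directions. Of the 6 genes of this arm that were tested, Arntl, Arntl2, Clock, Npas2, Nfil3 and Rora, 0 passed the contrast by edgeR, by limma or by DESeq2, and 2, Clock and Rora, had an unadjusted p under 0.05 in edgeR. Arntl averaged 28.2 ± 1.5 CPM at 44-48 h, 28.1 ± 1.69 CPM at 32-36 h and 26.6 ± 2.66 CPM at 56-60 h, a contrast of 0.05 ± 0.10 (adjusted p = 0.753). Within the window Arntl stood at 30.3, 29.5 and 34.1 CPM at 44 h and at 25.8, 22.2 and 25.5 CPM at 48 h in courses 1, 2 and 3, whereas it stood at 21.8, 20.6 and 22.7 CPM at 32 h and 33.5, 24.8 and 30.7 CPM at 36 h. Arntl was thus lower at 48 h than at 44 h and higher at 36 h than at 32 h in each course. Nfil3, the D-box repressor and a known REV-ERB target, averaged 13.5 ± 0.941 CPM at 44-48 h, 11.2 ± 0.817 CPM at 32-36 h and 14.3 ± 1.17 CPM at 56-60 h (contrast 0.10 ± 0.11, adjusted p = 0.566). Rora, which encodes a ROR activator that competes with REV-ERBs, had a contrast of -0.24 ± 0.09 (adjusted p = 0.0584). Of 11 tested macrophage genes known as REV-ERB targets, 3 rose, the inflammasome gene Nlrp3 at 0.23, the cytokine gene Il1b at 0.97 and Il10 at 0.53, and 1 fell, the metalloproteinase gene Mmp12 at -0.90. None of these 4 passed without the deviating libraries by edgeR, with adjusted p from 0.0844 to 0.109 and unadjusted p under 0.05 for all 4, and Il1b was under 1 CPM in the mean of each window. The list median was 0.01, beside 0.01 for all genes tested, of which 17.5% passed the contrast.

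The phase that the Nr1d1 peak had set in these same courses was also read in the 45 libraries outside the 9 time points. In them each gene was fitted with a 24 h cosine peaking at 46 h, its sine, and straight-line and quadratic terms in time, and the value given is the fitted peak-to-trough difference. Of 17504 genes tested 54 had a positive cosine past the threshold (0.309% of genes) and 7 a negative one (0.04%). Nr1d2 was among those past it, at 0.87 ± 0.12 (adjusted p = 0.000236), as were Per1 at 0.74 ± 0.16 (adjusted p = 0.0202) and Ciart at 1.55 ± 0.35 (adjusted p = 0.0238), beside 1.12 ± 0.17 for Nr1d1. Nfil3 was among the 7 negative genes, at -1.04 ± 0.20 (adjusted p = 0.00668), although its contrast in the 27 libraries was 0.10. At 20-24 h Nfil3 averaged 3.95 CPM with a highest library of 4.54 CPM, whereas its lowest library in the 27 was at 8.56 CPM. Of the 54 positive genes 9 were of the S phase list, in which 0 genes rose in the contrast. Whether such values reflect the phase or a change after the first hours was not tested. Cry2 at 0.74 (adjusted p = 0.055), Dbp at 0.93 (0.139), Tef at 0.52 (0.30), Cry1 at -0.64 (0.242) and Arntl at -0.62 (0.167) missed the threshold. With a straight-line term alone 2 genes passed, both positive, and with any 1 course left out 2 to 5 positive genes and at most 1 negative gene did. Without course 1 at 40 h and course 2 at 22 h, which also deviate, 221 positive and 85 negative genes passed.

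**Figure D2:**
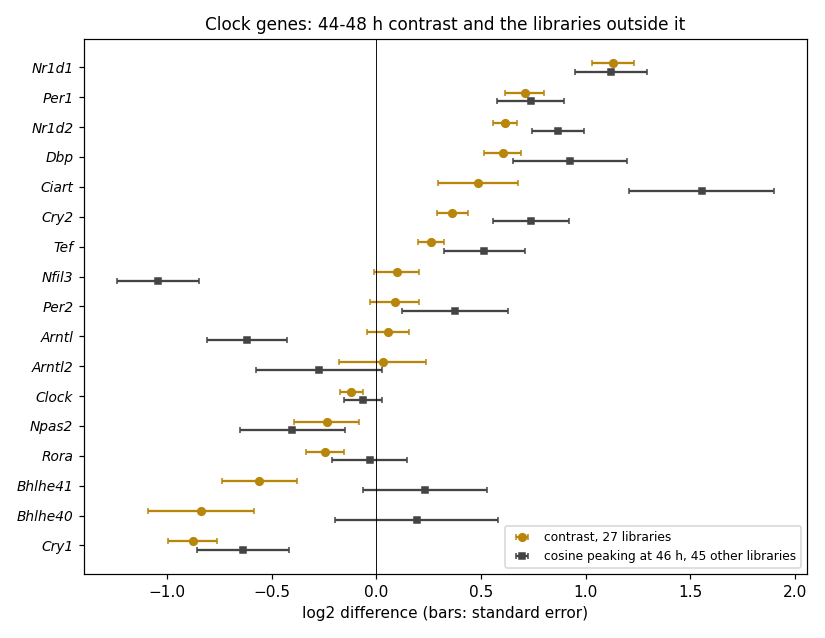
The contrast of 44-48 h against both flanks in 27 libraries (gold circles) and the peak-to-trough difference of a cosine peaking at 46 h in the 45 other libraries (dark squares) for the 17 clock genes tested, in log2 units on the x axis; bars are standard errors. Nr1d1, Per1, Nr1d2 and Cry1 have one sign in both, Nfil3 is near 0 in the contrast and at -1.04 outside it, and Bhlhe40 and Bhlhe41 are below 0 in the contrast alone.

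Across all genes the contrast called many more transcripts than the clock. Of 17903 genes tested 3129 passed (17.5%), 1165 higher at 44-48 h (6.51%) and 1964 lower (11%). Without the deviating libraries 9.47% of genes passed, of which 610 were higher (3.33% of 18302 tested) and 1123 lower (6.14%), 591 and 1105 of them the same genes. With 1 course left out in turn 225 to 661 were higher and 663 to 1083 lower. The joint test of both flanks called 8 genes (0.0447%): Nr1d1, Nr1d2 and Per1 higher than both flanks (0.0168%), and Cdc27, Ola1, Rpn2, Arhgap25 and Ndufv2 lower than both (0.0279%). Nr1d1 is counted here and under each alternative as a description only, since its peak set the hours. Without the deviating libraries the same 3 genes were higher than both (0.0164%), and only Cdc27 was lower than both (0.00546%). Without course 1, and likewise without course 3, Per1 was not called by the joint test and Nr1d1 and Nr1d2 were, and with any 1 course left out 0 genes were lower than both. With all windows moved 2 h later the joint test called 8 genes higher, Nr1d1, Nr1d2, Per1, Per2, Cry2, Dbp, Tef and D930015M05Rik, the antisense neighbour of Cry2, and with the windows moved 2 h earlier it called Cry1 and Per2 among the 5 lower ones.

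Most calls came from 1 flank. Of the 1165 higher genes 64.6% passed against 32-36 h alone, 17.3% against 56-60 h alone and 14.8% against each flank when the flanks were adjusted on their own. Of the 1964 lower genes 56.1% passed against 32-36 h alone, 18.1% against 56-60 h alone and 16.3% against each, and 8.86% passed against both in opposite directions. Without the deviating libraries 86.4% of the 610 higher genes passed against 32-36 h alone, 5.41% against 56-60 h alone and 4.59% against each. Of the 1123 lower genes then 85.8% passed against 32-36 h alone, 1.87% against 56-60 h alone and 3.03% against each. A further 8.55% passed against both in opposite directions. The single comparison with 32-36 h called 32.6% of genes, 2656 higher (14.8%) and 3188 lower (17.8%). That with 56-60 h called 21.1% of genes, 1703 higher (9.51%) and 2068 lower (11.6%). Both comparisons share the libraries of 44-48 h. When each flank was adjusted on its own, 172 genes were higher than both and 320 lower, and 28 and 34 without the deviating libraries.

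**Figure D3:**
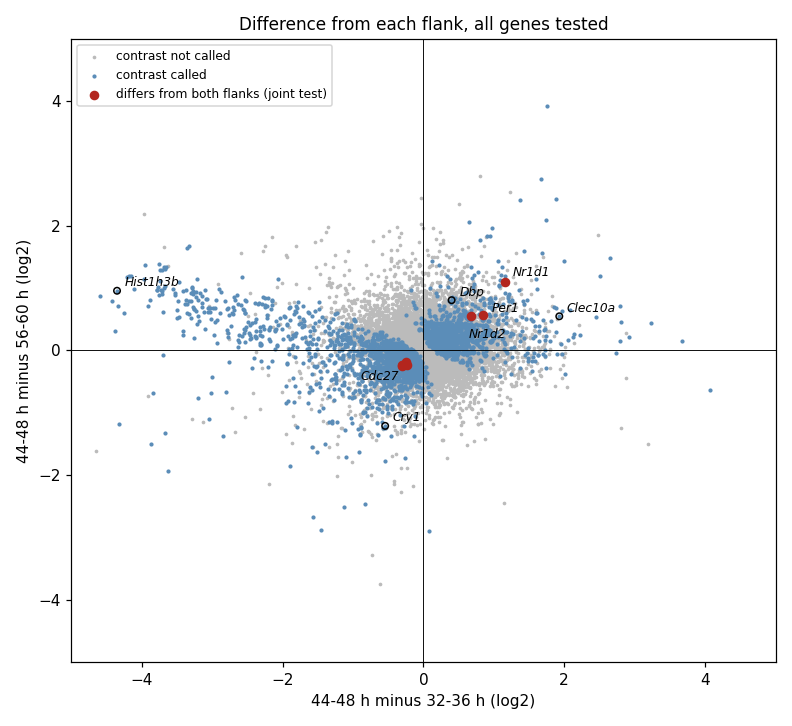
Each point is 1 of the 17903 genes tested, with the log2 difference of 44-48 h minus 32-36 h on the x axis and of 44-48 h minus 56-60 h on the y axis; blue genes passed the contrast and the 8 red genes passed the joint test of both flanks. Nr1d1 stands in the upper right corner region with both differences above 1, the cell cycle genes such as Hist1h3b form the arm to the left at positive y, and the 5 red genes at the lower left of the centre differ by less than 0.31 on each axis.

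The 5 genes below both flanks moved by small amounts with little spread. Cdc27, a subunit of the anaphase-promoting complex, had a lowest, median and highest value of 45.8, 48.2 and 53.5 CPM at 44-48 h, against 53.1, 59.6 and 65.0 CPM at 32-36 h and 55.2, 56.8 and 64.2 CPM at 56-60 h. Its groups met within 1 CPM at 53 CPM, and it fell by 0.23 ± 0.04 (joint adjusted p = 0.00417, and 0.0246 without the deviating libraries). Ola1, an ATPase of the Obg family, had 29.7, 31.7 and 33.7 CPM at 44-48 h, against 35.6, 39.7 and 42.4 CPM at 32-36 h and 34.2, 37.3 and 41.8 CPM at 56-60 h. Ola1 was the 1 gene of all tested (0.00559%) whose 9 libraries of 44-48 h lay below all flank libraries. It fell by 0.28 ± 0.04 (joint adjusted p = 0.0167, and 0.314 without the deviating libraries).

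Arhgap25, a GTPase-activating protein for Rac in leukocytes, averaged 49.1 ± 0.994 CPM at 44-48 h, 59.8 ± 1.29 CPM at 32-36 h and 58.0 ± 2.01 CPM at 56-60 h, a fall of 0.26 ± 0.04 (joint adjusted p = 0.0205). It was also among the 7 genes with a negative cosine in the 45 other libraries, at -0.43 ± 0.09 (adjusted p = 0.0174). The other 4 genes had cosine values from -0.02 to 0.08 there. Rpn2, a subunit of the oligosaccharyltransferase of the endoplasmic reticulum, averaged 209 ± 2.75 CPM at 44-48 h, 257 ± 12.3 CPM at 32-36 h and 247 ± 13.4 CPM at 56-60 h. Ndufv2, a subunit of respiratory complex I, averaged 41.1 ± 1.12 CPM at 44-48 h, 49 ± 1.77 CPM at 32-36 h and 46.8 ± 2.11 CPM at 56-60 h. Rpn2 and Ndufv2 fell by 0.27 and 0.22 (joint adjusted p = 0.0185 and 0.0384), and both were highest of 56-60 h in course 2 at 60 h, at 316 and 56.0 CPM. Without the deviating libraries the joint adjusted p was 0.724 for Rpn2, 0.772 for Ndufv2 and 0.548 for Arhgap25. Exons of Rpn2 overlap those of Mroh8 on the other strand.

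**Figure D4:**
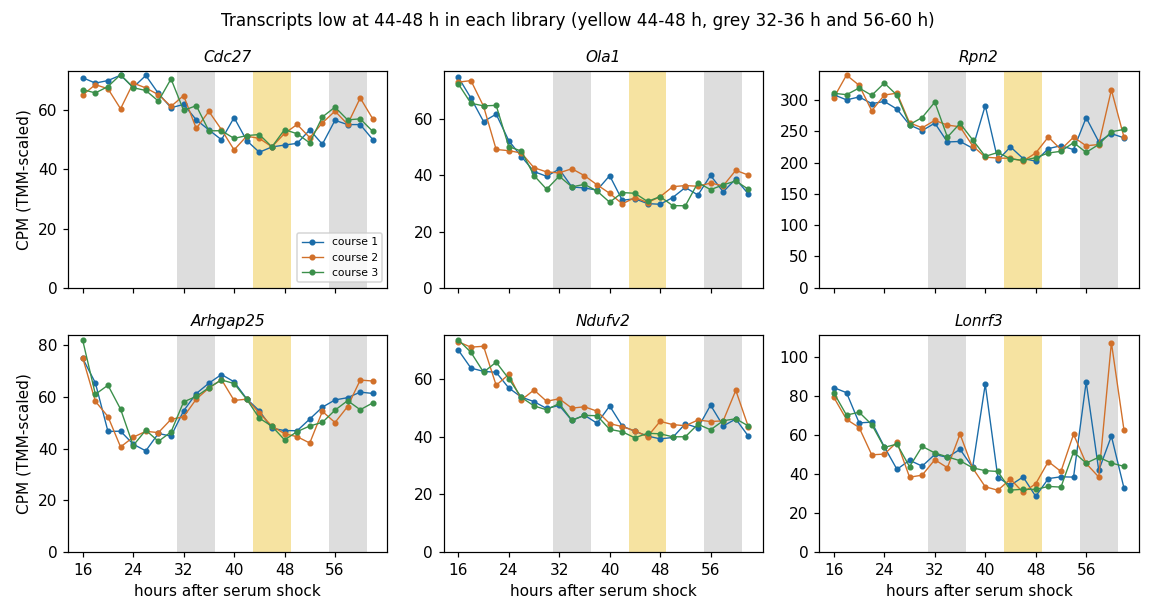
TMM-scaled CPM (y axis, from 0) in every library against hours after serum shock (x axis) for the 5 genes lower than both flanks and for Lonrf3, with 1 line per time course; yellow marks 44-48 h and grey the flanks. Arhgap25 dips a first time near 24 h as well, the other 4 genes fall from 16 h to a floor near 46 h and climb a little after it, and Lonrf3 spikes in course 1 at 40 h and 56 h and in course 2 at 60 h.

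The 8 genes have annotated positions on GRCm38. Nr1d1 (chromosome 11, 98767932 to 98775333, minus strand), Per1 (chromosome 11, 69095217 to 69109960, plus strand) and Cdc27 (chromosome 11, 104502745 to 104550620, minus strand) share a chromosome. Nr1d2 lies on chromosome 14 from 18204054 to 18239127 (minus strand), and Arhgap25 on chromosome 6 from 87458545 to 87533259 (minus strand). Ola1 lies on chromosome 2 from 73092801 to 73218924 (minus strand), Rpn2 on the same chromosome from 157279017 to 157326319 (plus strand), and Ndufv2 on chromosome 17 from 66078638 to 66101559 (minus strand).

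Of the gene lists described, that of G2 and mitosis had the most lower calls, and its genes differed mainly from 32-36 h. All 24 tested genes of the G2 and mitosis list fell in the contrast, with a median of -1.22 beside 0.01 for all genes. Their median was -3.21 against 32-36 h, where all 24 were lower, and 0.69 against 56-60 h, where 18 were higher. Among all genes tested 11% were called lower in the contrast, 17.8% lower against 32-36 h and 9.51% higher against 56-60 h. Top2a, the topoisomerase that untangles chromosomes, had 17.3, 22.4 and 58.9 CPM at 44-48 h, against 119, 267 and 388 CPM at 32-36 h and 13.6, 16.7 and 24.2 CPM at 56-60 h. The level of 44-48 h thus lay near that of 56-60 h and below every library of 32-36 h. Clustered histone genes had the same shape, with 13 of 15 lower and a median of -1.04, and Hist1h3b averaged 2.38 ± 0.734 CPM at 44-48 h, 47.5 ± 8.52 CPM at 32-36 h and 1.12 ± 0.221 CPM at 56-60 h. Read pairs that were not unique are left out of these counts, so near-identical histone genes may be undercounted. Of 23 S phase genes 15 fell, among them the replicative helicase gene Mcm6 at -0.58 and the polymerase gene Pola1 at -0.33. Outside the 27 libraries 9 of the 23 had a positive cosine peaking at 46 h, Mcm6 at 1.01, Pola1 at 0.79 and the thymidylate synthase gene Tyms at 0.90 among them, the opposite sign to their contrast. Among all genes tested there 0.309% had a positive cosine past the threshold.

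Lipid synthesis genes were lower, mostly against 32-36 h. Of 24 cholesterol synthesis genes 19 fell and 1 rose in the contrast, with a median of -0.56. Nsdhl, which removes methyl groups from sterol precursors, fell by 0.56 ± 0.12 (adjusted p = 0.000523), Lss, lanosterol synthase, by 0.95 (0.62 without the deviating libraries) and the mevalonate kinase genes Mvk and Pmvk by 0.43 and 0.36. Of 14 fatty acid synthesis genes 9 fell, among them the elongase gene Elovl5 at -0.31 and the desaturase gene Fads2 at -1.26 (-0.78 without the deviating libraries). Without the deviating libraries 7 cholesterol genes and 3 fatty acid genes were lower, and the cholesterol median against 56-60 h was 0.23, in place of -0.16 with them. Cd36, a scavenger receptor that takes up fatty acids, averaged 110 ± 19.1 CPM at 44-48 h, 270 ± 51.6 CPM at 32-36 h and 160 ± 27.9 CPM at 56-60 h. It fell by 0.88 ± 0.11 (adjusted p = 1.78e-07). The fatty acid binding protein genes Fabp4 and Fabp5 fell by 1.19 and 0.42. In all 3 of 18 genes of the list of PPAR targets fell, beside 11% of all genes called lower. The list had 2 lower genes without the deviating libraries, and Fabp5 did not pass then (adjusted p = 0.0557).

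Genes of the amino acid stress response lost their calls without the deviating libraries. Of 20 ATF4 targets 8 fell and 1 rose, and without course 1 at 56 h and course 2 at 60 h 0 passed by edgeR, with 7 at an unadjusted p under 0.05. In all 27 libraries limma called 6 of the 20 and DESeq2 10. Slc7a11, the cystine transporter, had 0.751, 1.13 and 1.69 CPM at 44-48 h, against 1.18, 1.52 and 3.73 CPM at 32-36 h and 0.838, 1.86 and 16.4 CPM at 56-60 h. Heat shock, unfolded protein response and ribosome biogenesis genes had few calls in the contrast, 1 of 19, 4 of 20 and 1 of 22 (1, 2 and 0 by edgeR without the deviating libraries), but were lower against 56-60 h in 12, 13 and 13 genes. Over all genes 17.5% passed the contrast (9.47% without the deviating libraries) and 11.6% were lower against 56-60 h. Glycolysis and HIF target genes had opposite differences from the flanks: of 23 genes 14 were lower than at 32-36 h, at a median of -0.43, and 15 higher than at 56-60 h, at a median of 0.52, and the contrast called 1 higher and 1 lower. Nuclear-encoded ribosomal protein genes did likewise, with 13 of 23 lower than at 32-36 h and 17 higher than at 56-60 h. Among all genes tested 17.8% were lower than at 32-36 h and 9.51% higher than at 56-60 h. The medians of the glycolysis and ribosomal protein lists thus stepped through the 3 windows in one direction, a step that the contrast cancels.

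**Figure D5:**
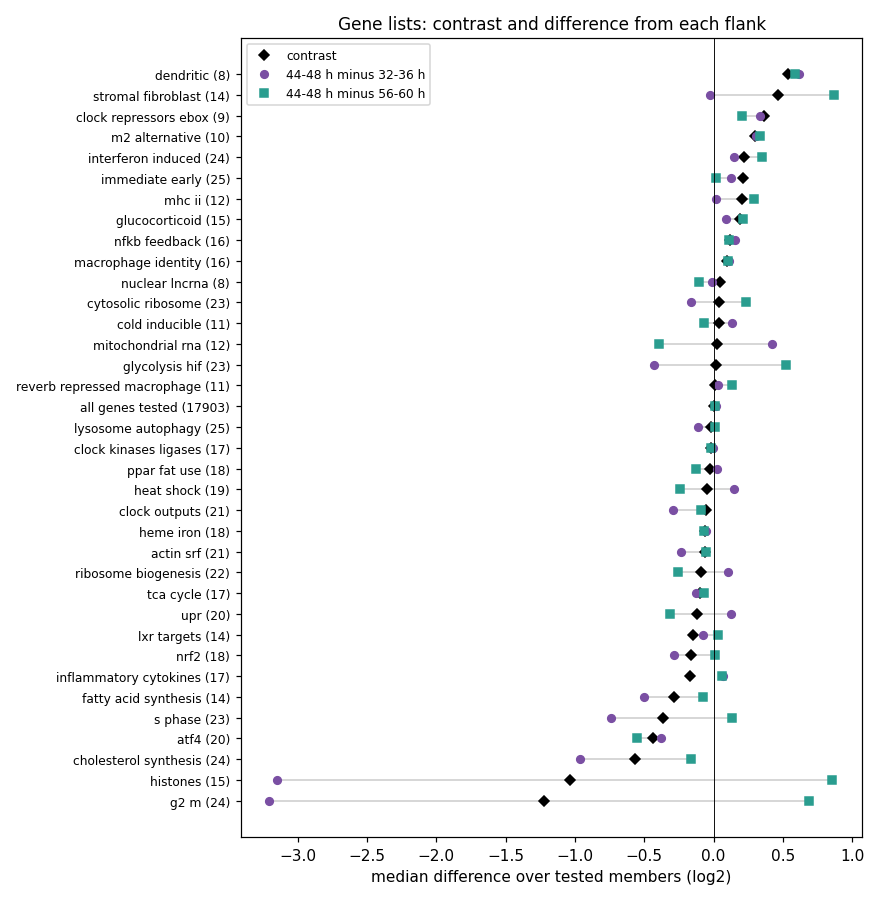
Median log2 difference over the tested members of each gene list with 8 or more (number in brackets): the contrast (black diamonds), 44-48 h minus 32-36 h (purple circles) and 44-48 h minus 56-60 h (green squares); the row of all genes is included. The G2 and mitosis and the histone lists are far below 0 against 32-36 h and above 0 against 56-60 h, glycolysis has its flank values on opposite sides of 0, and the ATF4 and cholesterol lists are below 0 in all 3.

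Immune genes made up part of the higher calls. Over all genes 6.51% were called higher and 11% lower, and 3.33% and 6.14% without the deviating libraries. Of 16 feedback genes of NF-κB 8 rose and 1 fell, and without the deviating libraries 6 rose. Nfkbia, which encodes the inhibitor IκBα, averaged 47.9 ± 1.52 CPM at 44-48 h, 39 ± 2.7 CPM at 32-36 h and 41.3 ± 1.92 CPM at 56-60 h. It rose by 0.26 ± 0.05 (adjusted p = 7.56e-05). Nfkbiz, an atypical member of that inhibitor family, rose by 0.45 ± 0.09, and Bcl3, a nuclear one, by 0.47 ± 0.13. Of 25 immediate early genes 7 rose and 3 fell (5 and 1 without the deviating libraries), with Ier3 at 0.54 and Egr1 at 0.81 against Atf3 at -0.51 (-0.32 without those libraries). Egr1 averaged 2.53 CPM at 44-48 h, 0.618 CPM at 32-36 h and 3.25 CPM at 56-60 h, so that it rose against 32-36 h alone. Without the deviating libraries Ier3 and Atf3 were not called against 56-60 h (adjusted p = 0.277 and 0.486, edgeR). Of 10 tested genes of alternative activation 4 rose, the lectin genes Clec10a at 1.24 and Mgl2 at 1.17, the interleukin 4 receptor gene Il4ra at 0.42 and the factor gene Irf4 at 0.65, and all but Irf4 passed without the deviating libraries. Clec10a averaged 204 ± 38.2 CPM at 44-48 h, 53.9 ± 3.55 CPM at 32-36 h and 143 ± 34.3 CPM at 56-60 h. Clec10a and Mgl2 were not called against 56-60 h (adjusted p = 0.206 and 0.699, edgeR). Il4ra and Irf4 were called against 56-60 h, but not without the deviating libraries (adjusted p = 0.295 and 0.195, edgeR). Of 16 macrophage identity genes 2 rose and 1 fell, beside 6.51% of all genes called higher and 11% called lower. Csf1r, the receptor of M-CSF, rose by 0.54 ± 0.12 (adjusted p = 0.000864), and Cd68, a lysosomal glycoprotein, fell by 0.23 (adjusted p = 0.0289, and 0.112 without the deviating libraries). Csf1r was called against 56-60 h (adjusted p = 0.0259), but not without the deviating libraries (adjusted p = 0.282, edgeR). Of 24 interferon-induced genes 4 rose, and 1 did without the deviating libraries, near the 3.33% of all genes. Of 12 class II antigen presentation genes 0 passed by edgeR (5 had an unadjusted p under 0.05, and limma and DESeq2 called 1 each, Cd74). Of 8 tested dendritic cell markers 3 rose and 1 fell, all of them under 5 CPM in each window.

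Few transcripts separated the hours in every library. All 9 libraries of 44-48 h lay above all 18 flank libraries for 8 genes (0.0447%), among them Nr1d1, Nr1d2, Thra, Birc3, Fcrls, Slco3a1 and 3110082I17Rik, which were named after their values were seen. Thra, a thyroid hormone receptor gene, averaged 40.3 ± 1.68 CPM at 44-48 h, 30.7 ± 2.04 CPM at 32-36 h and 23.8 ± 1.78 CPM at 56-60 h. Its exons overlap those of Nr1d1, so reads of the pair may not be told apart. Birc3, a ubiquitin ligase of TNF receptor signalling, had 89.4 to 103 CPM at 44-48 h and at most 89.0 CPM on the flanks. Slco3a1, an organic anion transporter gene, had 3.08 to 3.86 CPM at 44-48 h and at most 3.08 CPM on the flanks. The gaps of these last genes are narrow beside that of Nr1d1, whose lowest library of 44-48 h was at 14.2 CPM and whose highest flank library was at 9.02 CPM. None of Thra, Birc3, Fcrls and Slco3a1 passed the joint test, with adjusted p from 0.171 to 0.956.

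The genes most like Nr1d1 over the 9 time point means of log2 CPM, among genes of at least 5 CPM whose exons do not overlap it, were Mif4gd, Akna, Ids, Gm16175 and Tnrc18, with Pearson correlations of 0.953, 0.953, 0.95, 0.932 and 0.931. The points share the 27 libraries and 9 means are few, so these values are a description. Their contrasts were small beside that of Nr1d1, from 0.14 for Mif4gd to 0.46 for Gm16175, whose exons overlap those of Bcl3, and none passed without the deviating libraries. None of the 5 had a cosine past the threshold in the 45 other libraries.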

How the data were processed

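RNA from 72 macrophage libraries was extracted on columns, depleted of ribosomal RNA and sequenced as read pairs, per the labels' protocols. The submitters' processing notes name DRAGEN, HTSeq and the GRCm38 (mm10) genome; no source used here gives their versions, the annotation or the strand setting. The deposited values are whole-number counts per gene, with no normalization as the values show; 5 lines that name no gene were left out (29.8% to 35.8% of all tallied read pairs had no feature and 21.2% to 33.0% were not unique in the 27 libraries). The reads that each value rests on are PCR products without molecular identifiers, so a count is of reads and not of molecules. Standard errors and p-values include the spread between libraries of the same hour.

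Genes were kept by filterByExpr by time point (17903 genes), with TMM factors, and edgeR 4.0.16 in R 4.3.3 fitted them by glmQLFit with 24 time levels over 72 libraries and no course term. Quasi-likelihood F tests gave the contrast and each flank, adjusted by Benjamini-Hochberg at 0.05. The joint test, the cosine in 45 libraries, and alternatives with limma 3.58.1 (log2 CPM, prior count 2) and DESeq2 1.42.0 are described beside their results; the models were tested on simulated data. Libraries of successive hours were treated as independent.

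Named genes are all tested clock genes, up to 12 per direction past the joint test with at least 5 CPM and 1 sign in each course, up to 4 smallest adjusted p per list for 40 gene lists, and 5 genes most like Nr1d1. Mcm6, Pola1, Tyms and the genes without overlap were named after their values were seen. The hours, members and lists were chosen with earlier results of these data known. Positions and overlapping exons come from the GENCODE annotation of GRCm38, and promoters from RefSeq (GRCm38.p6).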

Additional observations from a re-analysis of the deposited data

Results flagged for a closer look

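In 66 groups of 9 libraries, the named clock genes and those past the joint test in each of the 3 windows, a single library stood apart from the other 8 in 2 cases by Dixon's criterion for 9 values, and chance gives about 1 in 20. Nr1d1 was at 5.37 CPM in course 2 at 36 h, below the other libraries of 32-36 h, which ran from 6.77 to 8.15 CPM. Ndufv2 was at 45.25 CPM in course 2 at 48 h, above the other libraries of 44-48 h, which ran from 39.2 to 41.9 CPM.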

How the results depend on the processing

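With RLE factors the contrast called 1327 higher and 1762 lower genes, and 1165 and 1762 of them were the same as with TMM; with DESeq2 it called 1434 and 1930, with limma 1221 and 1895, with the 27 libraries alone 1025 and 1827, and with no filter on low counts 883 and 1435. Counts moved by over 1.5 times without course 1 at 56 h and course 2 at 60 h (610 and 1123), with a course left out (225 to 661 and 663 to 1083), with windows 2 h earlier (769 and 1006) or later (188 and 639), and with 46 h against 34 h and 58 h alone (3 and 3). The joint test called 3 higher and 5 lower genes. It called 6 higher genes without those libraries and course 1 at 40 h and course 2 at 22 h, 5 with windows 2 h earlier, 8 with windows 2 h later, 5 with DESeq2, 1 with the centre hours and 2 to 3 with a course left out. It called 0 lower genes with no filter, with the centre hours and with any course left out (0 to 0, edgeR), 1 without the deviating pair, 2 with windows 2 h later and 11 with DESeq2. With each flank adjusted on its own it was 172 and 320, and 28 and 34 without the deviating pair. The positive and negative cosines numbered 2 and 0 with straight-line drift, 2 to 5 and 0 to 1 with a course left out, 221 and 85 without course 1 at 40 h and course 2 at 22 h, and 18 negative ones with no filter. Settings with those 4 libraries or with flanks adjusted on their own were chosen after seeing the data.

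The replicate block, a term for the course, gave 1501 higher and 2308 lower genes in the contrast, 4 and 12 in the joint test and 61 and 10 cosines. Deviations of a course from the window means correlated at 0.01 to 0.54 between windows, not all over 0.1. A course did not always correlate best with itself. Between the window of the Nr1d1 peak and the earlier flank the correlations were 0.27, 0.54 and 0.46 in courses 1, 2 and 3. Between that window and the later flank they were 0.28, 0.06 and 0.01, and between the flanks 0.29, 0.08 and 0.19. Whether a course number marks shared mice or cultures was not tested.

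Some contrasts changed sign. With the centre hours Arntl was at -0.14, Nfil3 at -0.094 and Scd2 at 0.0096, which with all hours was called at -0.92. With windows 2 h earlier Per2 was at -1.11, Cry2 at -0.12, Ciart at -0.13, Arntl2 at -0.092, Npas2 at 0.26 and Tef at -0.12, of which Cry2 and Tef were called higher at the hours reported; and with windows 2 h later Arntl was at -0.36, Arntl2 at -0.11 and Nfil3 at -0.19. Without the deviating pair, and also without all 4 libraries, Arntl was at -0.017 and Arntl2 at -0.0265; with a course left out Per2 ran from -0.073 to 0.19 and Arntl2 from -0.13 to 0.13. The cause was not tested. In the contrast Nr1d2 and Per1 kept their direction and call in all 14 alternatives; in the joint test Per1 was not called with course 1 or 3 left out, with windows 2 h earlier or with the centre hours. Genes under 1 CPM rest on fewer than 55.3 counts per library at the median depth.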

Other observations

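Further groups were described by counts alone. Of 21 tested clock output genes 3 rose and 6 fell in the contrast, and 2 rose and 3 fell without course 1 at 56 h and course 2 at 60 h, the deviating libraries. Among all genes tested 6.51% were called higher, and 3.33% without the deviating libraries. Wee1, a kinase that holds back mitosis, averaged 9.87 ± 0.434 CPM at 44-48 h, 28.8 ± 1.94 CPM at 32-36 h and 14.8 ± 2.81 CPM at 56-60 h. It fell by 1.03 ± 0.15 (adjusted p = 2.36e-06, edgeR). Against 56-60 h Wee1 differed by -0.54 (adjusted p = 0.0175), and by -0.25 without the deviating libraries (adjusted p = 0.381, edgeR). Lonrf3, a ring finger gene, fell by 0.67 ± 0.12. Klf11 and Klf10, zinc finger factors induced by TGF-β, rose by 0.77 and 0.50. Both rose against 32-36 h alone. Neither was called against 56-60 h (adjusted p = 0.286 and 0.063, edgeR), nor without the deviating libraries (adjusted p = 0.885 and 0.478). Of 17 kinases, ligases and corepressors of the clock 3 fell, Nono, Usp2 and Tbl1xr1, at -0.12, -0.82 and -0.16. Over all genes 11% were called lower. Without the deviating libraries 1 of the 17, Nono, was, beside 6.14% of all genes. Nono averaged 149 ± 1.47 CPM at 44-48 h, 192 ± 8.67 CPM at 32-36 h and 138 ± 8.58 CPM at 56-60 h. It was thus lower than at 32-36 h but higher than at 56-60 h (0.12, adjusted p = 0.0146, edgeR).

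Of 17 citric acid cycle genes 7 fell and 1 rose, Fh1, fumarate hydratase, at 0.30; without the deviating libraries 3 fell and 1 rose. Of 18 NRF2 targets 6 fell, the peroxidase genes Prdx1 and Gpx1 at -0.29 and -0.33 among them, and 4 fell without the deviating libraries. Of 21 actin and SRF genes 7 fell (5 without the deviating libraries), with the intermediate filament gene Vim at 399 ± 42.7 CPM at 44-48 h, 1516 ± 126 CPM at 32-36 h and 473 ± 134 CPM at 56-60 h. The mitochondrially encoded RNAs summed to a median of 111900 CPM at 44-48 h, 94750 CPM at 32-36 h and 121500 CPM at 56-60 h. The heme and iron list had 4 lower genes of 18, one of which, Nceh1, is a cholesterol ester hydrolase and not a gene of heme. Of the list 1 gene was lower without the deviating libraries, and Nceh1 did not pass (adjusted p = 0.108). Over all genes 11% were called lower, and 6.14% without the deviating libraries.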
